A study of Mus musculus with 8 samples.

Results

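The Pax genes encode transcription factors that bind DNA through a paired domain. The rule named 7 of them by symbol: Pax9, Pax1, Pax3, Pax7, Pax2, Pax6 and Pax8. Their Ensembl identifiers gave 5 rows among the 19083 genes of the expression table, and Pax2 and Pax8 are not analysed here. Of those 5, 4 passed the filter on low values, which kept genes that reached an FPKM of 1 in any 2 libraries, and Pax6 did not.

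The samples were palatal shelves, the paired outgrowths that later join to form the roof of the mouth, dissected from single mouse embryos of strain C57BL/6 at embryonic day 13.5. By the genotype labels, 4 embryos were Pax9-/- and are called null, 2 were Pax9+/+ and are called wild type, and 2 were Pax9+/- and are called heterozygote. The treatment label was not applicable for all 8, so all groups shared the strain, the age and the lack of a treatment. The comparison asks how the family's RNA in the shelves differs when Pax9 is lost. Controls are the wild types and heterozygotes together (n = 4), and the replicate numbers only name a library.

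Pax9 and Pax1 form one subgroup of the family, with a paired domain and no homeodomain. Both act in the pharyngeal pouches and in the sclerotome, the part of the somite that forms the vertebral column, and Pax9 is also needed for the palate, the teeth and the limbs. Pax3 and Pax7 carry a homeodomain beside the paired domain. Pax3 acts in neural crest and in muscle progenitors, and Pax7 marks muscle progenitors and satellite cells. Pax6 directs eye, forebrain and olfactory development, while Pax2 and Pax8 act in kidney, ear and thyroid.

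The promoters of Pax9 and Pax1 are shown because these were the members whose null values lay below every control value. Each is a RefSeq window on GRCm38.p6 of 250 bases before to 50 bases after an annotated start, on the plus strand. The Pax9 window is chr12:56695221-56695520 and the Pax1 window is chr2:147364744-147365043, and capitals mark a match to the motif GTCACG on either strand.
Pax9: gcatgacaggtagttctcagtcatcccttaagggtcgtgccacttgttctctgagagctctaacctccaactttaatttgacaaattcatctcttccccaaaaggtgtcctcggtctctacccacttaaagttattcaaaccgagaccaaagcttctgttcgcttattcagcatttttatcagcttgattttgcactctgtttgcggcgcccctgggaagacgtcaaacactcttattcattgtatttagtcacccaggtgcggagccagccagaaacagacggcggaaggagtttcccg
Pax1: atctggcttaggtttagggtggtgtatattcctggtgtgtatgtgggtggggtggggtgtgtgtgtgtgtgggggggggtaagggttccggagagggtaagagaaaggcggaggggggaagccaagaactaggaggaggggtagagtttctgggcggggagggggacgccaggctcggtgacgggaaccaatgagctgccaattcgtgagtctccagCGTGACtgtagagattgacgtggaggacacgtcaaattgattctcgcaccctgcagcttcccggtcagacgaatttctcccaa
The motif GTCACG is part of the sequence that paired domains bind, and TAATTG holds the core that homeodomains bind; both were searched on both strands, and their letters do not overlap in these windows. The Pax1 window held 1 match to GTCACG, read as CGTGAC on the strand shown, and none to TAATTG. The Pax9 window held a match to neither. Among all 32851 promoter windows of this length, 8.22% held GTCACG and 8.0% held TAATTG. The GC content was 47.0% in the Pax9 window and 57.3% in the Pax1 window, against a median of 52.7% over all windows. The table held windows for 6 of the 7 members, and it had no entry for Pax3.

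Pax9 was the most abundant member in every library, and its RNA was lower in each null embryo than in each control. In FPKM, the fragments of a gene divided by its length and by the depth of the library, it stood at 8.49, 7.19, 9.81 and 10.3 in null libraries 1 to 4. It stood at 35.8 and 27.2 in the wild types and at 30.1 and 26.2 in the heterozygotes. The null and control groups did not overlap, and the 2 wild types stood further apart than the 2 heterozygotes. The null mean was 8.95 ± 1.40 against 29.8 ± 4.29 FPKM in controls (SD, n = 4 each), which is 28.4% of the wild-type mean and 31.8% of the heterozygote mean.

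On the scale of log2(FPKM + 0.5), the change of Pax9 from control to null came to −1.68 ± 0.13 (SE), with a 95% interval from −1.97 to −1.40 (limma, adjusted p = 0.000556). Against the wild types alone the log2 change was −1.76 ± 0.15 (SE, limma adjusted p = 0.0038), and against the heterozygotes alone −1.61 ± 0.15 (SE, limma adjusted p = 0.00815). Leaving out wild type 1 or wild type 2 gave log2 changes of −1.57 and −1.95 against the 1 wild type that remained. Leaving out heterozygote 1 or heterozygote 2 gave −1.51 and −1.71 against the 1 heterozygote that remained. Not every such fit kept the call. Pax9 was 1 of 57 genes past an adjusted p of 0.05 out of 13600 tested, a share of 0.419%, split into 0.191% with the null lower and 0.228% with it higher, and 7.15% had an unadjusted p under 0.05. Pax9 is the targeted gene, so its fall is a check of the genotype labels. The heterozygote mean was 89.3% of the wild-type mean, a log2 difference of −0.15 ± 0.18 (SE) whose 95% interval ran from −0.55 to 0.25 (limma, adjusted p = 0.619). In that comparison limma called 0 of 13600 genes, a share of 0.0%, and 1568 genes had an unadjusted p under 0.05.

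Between 1379 and 2546 reads per null library were still assigned to Pax9, against 5097 to 8306 per control library. Pax9 (ENSMUSG00000001497) spans chr12:56691767-56712822 on the plus strand of GRCm38. The table gives 1 value for the whole gene, so which exons hold the remaining reads, and whether the mutant allele keeps them, was not tested. The library kit does not keep strand, and Slc25a21, a mitochondrial carrier gene on the other strand, shares 189 bases or 3.74% of the Pax9 exon bases. Slc25a21 itself lay between 0.104 and 0.174 FPKM in the 8 libraries.

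**Figure D1:**
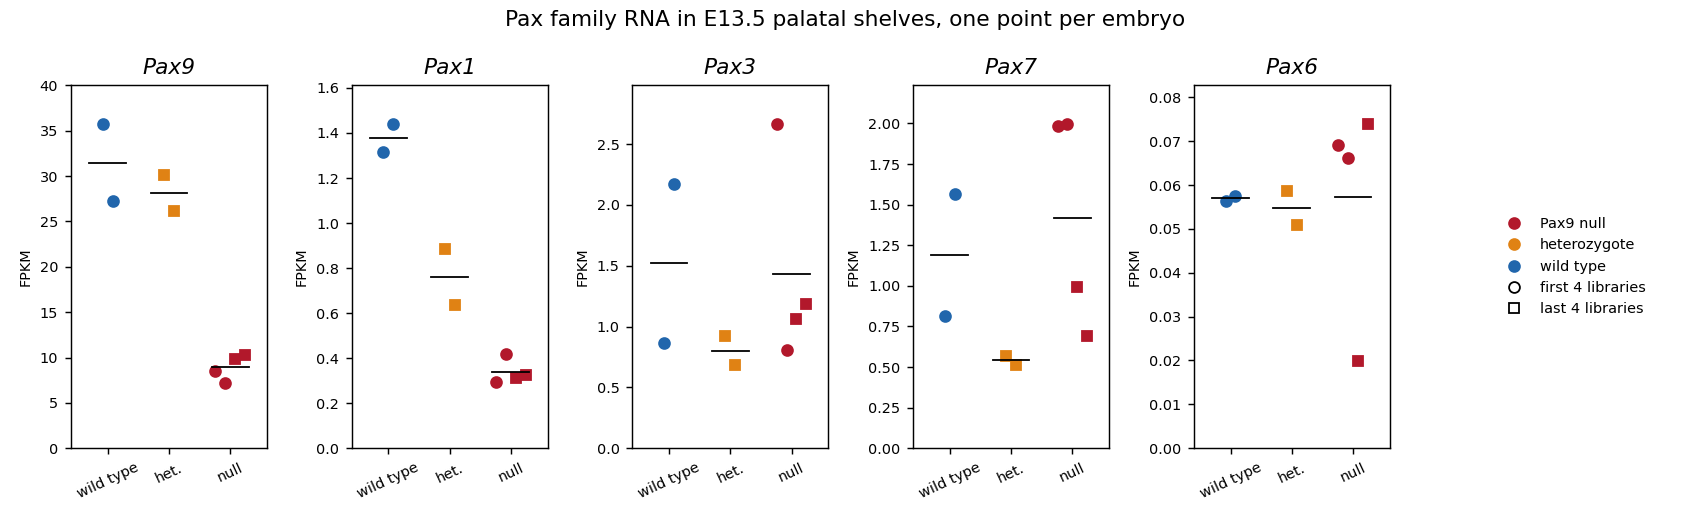
FPKM of the 5 members in each of the 8 libraries, with a scale of its own for each gene, 1 point per embryo and a line at each group mean; circles are the first 4 and squares the last 4 libraries in the table's column order. Pax9 and Pax1 have all 4 null points below all control points, while the groups overlap for Pax3, Pax7 and Pax6.

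Pax1, the closest relative of Pax9, had the same order of group means at a far lower level. It stood at 0.296, 0.417, 0.312 and 0.324 FPKM in null libraries 1 to 4, at 1.31 and 1.44 in the wild types, and at 0.883 and 0.636 in the heterozygotes. Every null library lay below every heterozygote, and every heterozygote lay below every wild type. These levels rest on 54 to 72 reads per null library, on 271 and 247 in the wild types, and on 154 and 110 in the heterozygotes. The same order without overlap was seen for 131 of 13600 tested genes, a share of 0.963%. Pax1 entered that set only through the wild types, its highest group.

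The Pax1 mean was 0.337 ± 0.054 FPKM in null and 1.07 ± 0.374 in controls (SD, n = 4 each), so null stood at 31.6% of the control mean. The log2 change of −0.88 ± 0.17 (SE) had a 95% interval from −1.27 to −0.48, and Pax1 did not pass the threshold in this comparison (limma, adjusted p = 0.0984). For so low a gene the size depends on the pseudocount, with −1.37 at 0.1 and −0.61 at 1 (limma, adjusted p = 0.0822 and 0.119). The two-sided exact permutation p of the −0.88 difference was 0.0286, the smallest that 4 against 4 libraries allow. It restates the absence of overlap. Pax1 entered the tested set only through the wild types, which are among these controls, so this p is not independent of the filter. Absence of overlap between null and control was seen for 5.13% of tested genes, with the null lower in 3.3% and higher in 1.83%.

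Pax1 entered the tested set only through the wild types, so a call against them is not independent of the filter. Against the wild types alone, Pax1 fell by 1.17 on the log2 scale (SE 0.15, limma adjusted p = 0.0167). In that comparison 52 genes or 0.382% passed, 0.199% of tested genes with the null lower, and the null mean was 24.5% of the wild-type mean of 1.38 ± 0.090 FPKM (SD, n = 2). Against the heterozygotes the log2 change was −0.58 ± 0.15 (SE, limma adjusted p = 0.398), and null stood at 44.4% of the heterozygote mean of 0.760 ± 0.175 FPKM (SD, n = 2). In that comparison 11 genes or 0.0809% passed, 0.0294% with the null lower and 0.0515% higher, and 6.95% had an unadjusted p under 0.05. The heterozygote mean was 55.2% of the wild-type mean, a log2 difference of −0.58 ± 0.17 (SE) with a 95% interval from −0.96 to −0.20 (limma, adjusted p = 0.377). Both wild types were among the first 4 library columns of the table and both heterozygotes among the last 4, so that genotype and place in the table cannot be told apart.

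Pax1 passed the low-value filter only through the 2 wild types, which were the libraries above 1 FPKM. In the same 3-genotype fit without any filter, added after seeing the data, Pax1 against the wild types had an adjusted p of 0.00981 (limma). The difference from all controls passed the threshold in 4 of 21 alternative settings, and in 1 of 8 fits that leave out 1 library. The settings that passed included voom on the recovered reads (log2 change −1.62, adjusted p = 0.0462). Others were column order, first 4 or last 4 libraries, as a block (limma, adjusted p = 0.0295) and the fit without heterozygote 2 (limma, adjusted p = 0.0361). The difference from the wild types did not pass without wild type 1, wild type 2 or null 3 (limma, adjusted p = 0.165, 0.178 and 0.059).

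The proportion of Pax1 to Pax9 was set side by side in each library, since the pair can act together in other tissues. Pax1 FPKM was 3.49%, 5.80%, 3.18% and 3.14% of Pax9 FPKM in null libraries 1 to 4. Wild types 1 and 2 had 3.67% and 5.29%, and heterozygotes 1 and 2 had 2.93% and 2.43%. The highest proportion was in null 2 and the lowest in heterozygote 2, and the groups overlapped. The log2 ratio of Pax1 to Pax9 differed by 0.14 between null and control (two-sided exact permutation p = 0.629). Over the 8 libraries the Pearson correlation of the pair was 0.884 on the log2(FPKM + 0.5) scale, as a description, since both genes also follow the genotype.

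**Figure D2:**
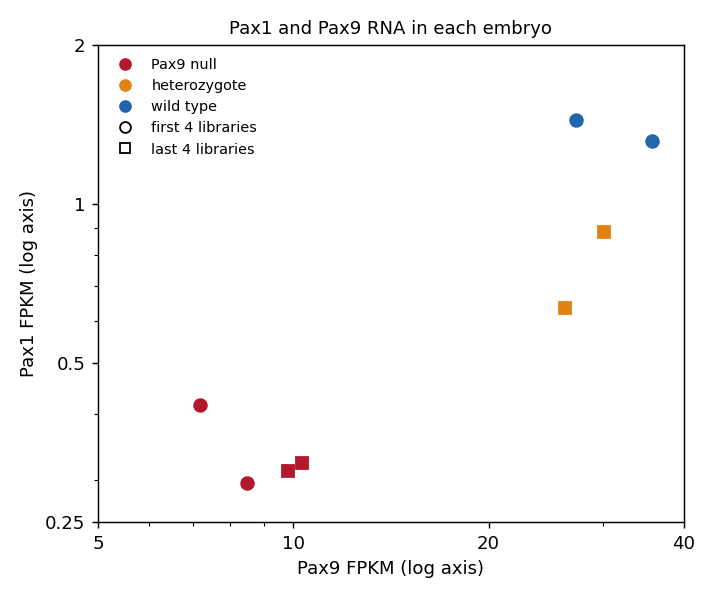
Pax1 FPKM against Pax9 FPKM in each of the 8 libraries, both on log axes, coloured by genotype. The null points lie at the lower left, and the wild types lie above the heterozygotes on the Pax1 axis while their Pax9 values overlap.

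Pax1 (ENSMUSG00000037034) spans chr2:147361925-147393295 on the plus strand. An antisense gene there, AI646519, shares 183 bases or 4.07% of the Pax1 exon bases and lay at 0 to 0.434 FPKM. The longest protein-coding transcripts of Pax9 and Pax1 in the annotation aligned over 764 bases with 74.6% identity. These 2 transcripts have 4232 and 2643 bases. Over all annotated transcripts of the 2 genes, no stretch of 36 identical bases was shared. Sharing of the reads themselves between the genes was not tested. Among the 21 pairs of members compared this way, only Pax3 with Pax6 shared such a stretch (2 of them), and no pair shared 50 bases.

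Pax7 RNA varied more among the null embryos than the group means differed. It stood at 1.99, 2.00, 0.994 and 0.694 FPKM in null libraries 1 to 4, at 0.813 and 1.56 in the wild types, and at 0.567 and 0.514 in the heterozygotes. Null 1 and null 2 were the highest and the heterozygotes the lowest, and the null and control groups overlapped. The means were 1.42 ± 0.674 in null and 0.865 ± 0.484 FPKM in controls (SD, n = 4 each). The log2 change of 0.48 ± 0.30 (SE) had a 95% interval from −0.19 to 1.15 and did not pass (limma, adjusted p = 0.862). The log2 change was 0.60 in the first 4 libraries alone and 0.36 in the last 4 alone, and neither passed (limma, adjusted p = 0.665 and 0.828). With column order as a block the change of 0.48 had a smaller standard error of 0.15 and still did not pass (limma, adjusted p = 0.171).

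Pax7 tracked muscle genes from library to library. The 3 genes most like it among 13028 candidates, by Pearson correlation of log2(FPKM + 0.5) over the 8 libraries, were Myog (r = 0.9997), Chrnb1 (r = 0.998) and Tnnt2 (r = 0.998). Myog encodes the differentiation factor myogenin, Chrnb1 a subunit of the muscle acetylcholine receptor, and Tnnt2 a troponin T of cardiac and embryonic muscle. Myog stood at 45.7, 46.5, 19.1 and 12.9 FPKM in null libraries 1 to 4, at 15.6 and 32.7 in the wild types, and at 10.4 and 9.94 in the heterozygotes, which is the order of Pax7 in all 8 libraries.

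The summed FPKM of 10 skeletal muscle markers was 336, 351, 146 and 80.4 in null libraries 1 to 4. Wild types 1 and 2 had 107 and 230, heterozygotes 1 and 2 had 72.6 and 74.7, and none of the 10 was at 0 in any library. Null 1, null 2 and wild type 2 held the most muscle RNA. Across the 8 libraries Pax7 and this sum, both on a log2 scale, had r = 0.991 (exact permutation p = 7.44e-05, 0.000446 adjusted over 6 relations) and Spearman's rho = 0.976 (exact permutation p = 0.000397, adjusted 0.00238). Without null 1 and null 2, the libraries farthest from the median of the sum, r was 0.981. The first 4 and the last 4 libraries are each too few for a correlation of their own.

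As a share of Myod1, the gene of a muscle determination factor, Pax7 lay between 9.76% and 12.1% in all 8 libraries. The mean share was 10.6% ± 0.91 in null and 11.3% ± 0.83 in controls (SD, n = 4 each; two-sided exact permutation p = 0.257). In bulk tissue, fewer cells of a type and less RNA per cell cannot be told apart, and the part of muscle content in the Pax7 difference was not tested beyond these shares. Pax7 (ENSMUSG00000028736) spans chr4:139737062-139833528 on the minus strand and was counted with 116 to 569 reads per library.

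**Figure D3:**
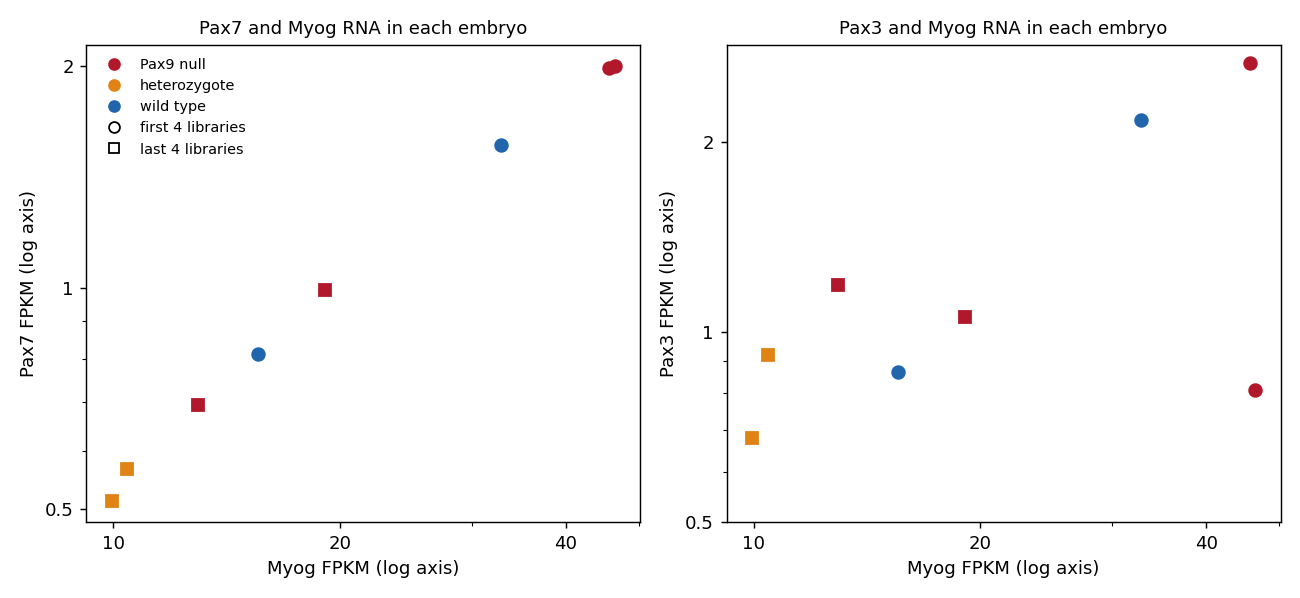
Pax7 FPKM (left) and Pax3 FPKM (right) against Myog FPKM in each of the 8 libraries, all on log axes, coloured by genotype. Pax7 rises with Myog along a narrow line (r = 0.9997), while Pax3 scatters and null 2 combines high Myog with low Pax3.

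Pax3 RNA also varied within genotypes, with 1 high library in the null and 1 in the control group. It stood at 2.67, 0.810, 1.06 and 1.19 FPKM in null libraries 1 to 4, at 0.866 and 2.17 in the wild types, and at 0.920 and 0.680 in the heterozygotes. Null 1 and wild type 2 stood above the other 6, and the groups overlapped. The means were 1.43 ± 0.839 in null and 1.16 ± 0.683 FPKM in controls (SD, n = 4 each), with a log2 change of 0.21 ± 0.32 (SE) and a 95% interval from −0.51 to 0.92 (limma, adjusted p = 0.994). Without null 1 the log2 change was −0.06, so its direction rests on that library. Pax3 (ENSMUSG00000004872) spans chr1:78101267-78197134 on the minus strand and was counted with 162 to 806 reads per library.

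Pax3 was set against the same marker sums. Its r with the summed muscle markers was 0.561 (exact permutation p = 0.156, 0.311 adjusted over the 6 relations), with rho = 0.310 (exact permutation p = 0.462), and r was 0.807 without null 1 and null 2. Its r with the sum of 5 Schwann and glial precursor markers was 0.422 and with the sum of 7 neuron markers −0.21 (exact permutation p = 0.297 and 0.621). The share of Pax3 in Myod1 FPKM ran from 4.03% in null 2 to 19.95% in null 4, a wider span than that of Pax7. Whether the correlations of Pax3 and Pax7 differ was not tested. The 3 genes most like Pax3 were Smarcc2 (r = 0.972), a subunit of the BAF chromatin remodelling complex, Ep400 (r = 0.965), a chromatin remodeller, and Gon4l (r = 0.950). Smarcc2 itself moved little, between 71.9 and 82.0 FPKM. The longest transcripts of Pax3 and Pax7 aligned over 1396 bases with 75.9% identity.

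Pax6 was near the limit of detection. It stood at 0.0691, 0.0662, 0.0199 and 0.0739 FPKM in null libraries 1 to 4, at 0.0564 and 0.0576 in the wild types, and at 0.0586 and 0.0509 in the heterozygotes. That is 13 to 43 reads per library, the lowest being null 3, and the null range enclosed the control range. The mean log2(FPKM + 0.5) differed by 0.0025 between the groups (two-sided exact permutation p = 1.0). Pax6 (ENSMUSG00000027168) spans chr2:105668900-105697364 on the plus strand. Of 7 measured markers of forebrain, eye and olfactory epithelium, Sox2 and Emx2 passed the filter and neither passed the test. The 2 log2 changes lay above 0, with a median of 0.20. For 1 of the 2 the null libraries lay above all controls, as for 1.83% of all tested genes. The 7 markers summed to 33.7 to 39.3 FPKM in null and 29.1 to 37.7 in controls.

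By mean FPKM the null libraries ranked the members as Pax9 (8.95), Pax3 (1.43), Pax7 (1.42), Pax1 (0.337) and Pax6 (0.0573). The controls ranked them as Pax9 (29.8), Pax3 (1.16), Pax1 (1.07), Pax7 (0.865) and Pax6 (0.0559), so that Pax1 and Pax7 stood in another order. Pax9 exceeded Pax3 in 8 of 8 libraries, by 14.0-fold in the geometric mean (two-sided exact permutation p = 0.00781 over sign flips), and Pax1 exceeded Pax6 in 8 of 8, by 10.9-fold (same exact permutation p of 0.00781, the smallest that 8 libraries allow). Pax3 exceeded Pax7 in 7 of 8, and the pair did not differ beyond the spread (exact permutation p = 0.430). Pax7 exceeded Pax1 in 4 of 4 null libraries and in 1 of 4 controls.

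Pax9 made up most of the family's measured RNA even in null shelves. Its share of the summed FPKM of the 5 members was 62.9%, 68.6%, 80.5% and 81.9% in null libraries 1 to 4, with 92.1% and 83.9% for the wild types, then 92.5% and 93.3% for the heterozygotes. The shares did not overlap, with means of 73.5% ± 9.24 in null and 90.5% ± 4.42 in controls (SD, n = 4 each, two-sided exact permutation p = 0.0286, the smallest possible). Pax9 is the targeted gene and most of the sum, so a lower share follows from its own fall and is not a separate result. The sum of the other 4 members was 3.24 ± 1.27 FPKM in null and 3.15 ± 1.47 in controls (exact permutation p = 0.886). The sum of all 5 was 12.2 ± 1.27 against 33.0 ± 4.42 FPKM. No member was higher in null by the test, and a difference smaller than the intervals given for Pax3 and Pax7 was not detectable here.

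**Figure D4:**
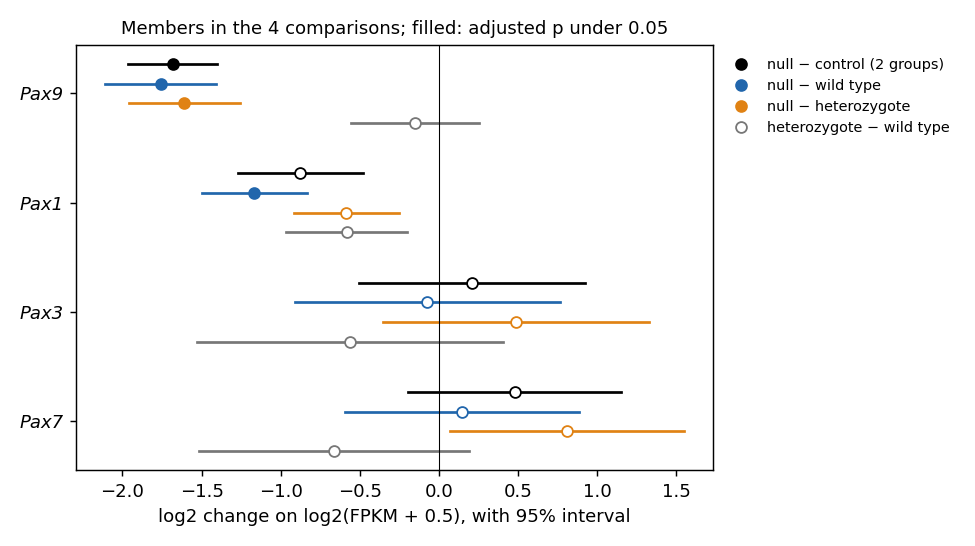
Log2 changes of the 4 tested members in the 4 comparisons with 95% intervals from limma; filled points passed an adjusted p of 0.05 over 13600 genes. Pax9 passed in all comparisons that involve the null embryos; Pax1 passed against the wild types, the group through which it entered the tested set, and the comparisons share libraries.

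Genes near the members were read as a description of each locus. Within 500 kb of Pax9 the table held 4 genes, of which 3 were tested and 0 passed; near Pax1 it held 3 with 1 tested, near Pax3 6 with 3 tested, near Pax7 12 with 10 tested, and near Pax6 5 with 4 tested, and again 0 passed. Gm15524, an antisense RNA that overlaps the Pax9 span without touching its exons, lay at 3.85, 4.67, 3.33 and 3.90 FPKM in null libraries 1 to 4. It lay at 2.77 and 2.66 in the wild types and at 3.34 and 3.31 in the heterozygotes, so that null 3 overlapped the heterozygotes. Its log2 change was 0.33 ± 0.11 (SE, limma adjusted p = 0.428), on 47 to 87 reads per library. Mbip, a protein-coding neighbour of Pax9, changed by −0.01 on the log2 scale (limma, adjusted p = 1.0).

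The genes most like Pax9 over the 8 libraries, among 13028 candidates, were Mpped2 (r = 0.986), a phosphodiesterase gene, Gabrb2 (r = 0.983), a GABA receptor subunit, and Cyp2s1 (r = 0.982), a cytochrome P450. Mpped2 lay at 25.2 to 26.6 FPKM in the null libraries and at 35.2 to 36.7 in the controls, without overlap. The genes most like Pax1 were 2610507B11Rik (r = 0.984), Sh3rf1 (r = 0.983), a scaffold and ubiquitin ligase, and Cux1 (r = 0.983), a homeodomain factor. Cux1 lay between 8.01 and 9.09 FPKM in the 8 libraries. These correlations were the highest of many and all follow the genotype.

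The other genes of the Pax networks were read as 5 lists, beside a median log2 change of −0.01 over all 13600 tested genes, of which 7374 were below 0 and 6226 above. Over all tested genes 0.191% passed with the null lower and 0.228% with it higher, and with lists this short a single call is already a larger share. Proteins of the Six2, Eya1 and Dach1 families act with Pax factors in a shared regulatory network. Of 12 such genes, 11 were measured and 9 tested; 0 rose or fell and 9 did not pass, with a median log2 change of 0.01. Six2, the most abundant, lay at 189 to 227 FPKM in null and 186 to 248 in control libraries. Eya1, a phosphatase and transcriptional co-activator, was at 25.5 ± 2.18 against 26.4 ± 1.01 FPKM (SD, n = 4 each).

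Of 10 partners and targets of Pax1 and Pax9 known from the sclerotome, 9 were measured and 8 tested, and 1 fell while 7 did not pass. The one that fell was Col2a1, the main collagen of cartilage, and the median log2 change was −0.06. Col2a1 lay at 89.3, 87.0, 84.3 and 80.6 FPKM in null libraries 1 to 4, at 125 and 113 in the wild types and at 103 and 110 in the heterozygotes. The groups did not overlap, and the log2 change was −0.40 ± 0.06 (SE, limma adjusted p = 0.0405), but it passed in 0 of the 8 fits that leave out 1 library. Sox9, the chondrogenic factor and the next most abundant, was at 22.2 ± 0.752 against 23.6 ± 0.409 FPKM (SD, n = 4 each). Acan, which encodes the cartilage proteoglycan aggrecan, was under the filter. It lay at 0.033 to 0.090 FPKM in null and at 0.252 to 0.569 in control libraries and, being named after its values were seen, has no test here. Nkx3-2, which Pax1 and Pax9 activate in the sclerotome, was at 1.09 ± 0.728 against 0.986 ± 0.267 FPKM.

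Among 12 genes studied with Pax9 in palate and tooth, 11 were tested, of which 1 rose (Osr2), 1 fell (Msx1) and 9 did not pass. The median log2 change was 0.00, with 5 genes below 0 and 6 above. Null and control did not overlap for 2 of the 11 with the null lower and for 3 with it higher. Over all tested genes these shares were 3.3% and 1.83%, and the list was chosen with earlier results of these data known. Osr2, a zinc-finger factor of palatal growth, lay at 154, 163, 161 and 163 FPKM in null libraries 1 to 4, at 86.9 and 77.0 in the wild types and at 113 and 107 in the heterozygotes. Its heterozygote values lay between the wild types and the nulls, an order whose share over all genes was not counted. Wild types and heterozygotes also differed in their place in the table, so that genotype and place cannot be told apart. Msx1, a homeobox factor of anterior palate and tooth mesenchyme, lay at 45.0, 31.8, 29.2 and 27.9 FPKM in null libraries 1 to 4, at 102 and 75.0 in the wild types and at 74.2 and 61.1 in the heterozygotes. Neither gene's groups overlapped, and the log2 changes were 0.75 ± 0.11 and −1.21 ± 0.18 (SE, limma adjusted p = 0.0286 and 0.0277). With 1 library left out, Osr2 passed in 3 of 8 fits and Msx1 in 2 of 8. Barx1, the most abundant of the list, was at 328 ± 17.7 against 269 ± 20.4 FPKM (SD, n = 4 each; limma adjusted p = 0.157), and the ligand gene Bmp4 at 12.3 ± 1.71 against 18.1 ± 3.02 (adjusted p = 0.191).

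Of 8 myogenic genes that act downstream of or beside Pax3 and Pax7, 6 were tested and 0 passed, and all 6 lay above 0 with a median log2 change of 0.33. Myod1 stood at 13.8 ± 7.47 FPKM in null against 7.60 ± 3.89 in controls (SD, n = 4 each; limma adjusted p = 0.832), and Itm2a, the most abundant of the list, at 106 ± 13.1 against 93.2 ± 8.84. Lbx1, a factor of migrating muscle progenitors, was at 0 in null 4 and heterozygote 2 and at most 0.042 FPKM elsewhere. Of the skeletal muscle markers 9 were tested and 0 passed, with a median log2 change of 0.76.

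Of 10 neural crest and melanocyte genes linked to Pax3, 8 were tested and 2 fell, Tfap2b and Tfap2a, while 6 did not pass; the median log2 change was −0.10. Tfap2b, an AP-2 factor of neural crest derivatives, lay at 3.57, 4.88, 4.99 and 5.19 FPKM in null libraries 1 to 4, at 15.9 and 13.2 in the wild types and at 13.7 and 13.8 in the heterozygotes. Its log2 change of −1.51 ± 0.11 (SE, limma adjusted p = 0.000556) passed in 8 of 8 fits that leave out 1 library. Tfap2a, its relative, was at 3.96 ± 0.209 against 5.54 ± 0.303 FPKM (SD, n = 4 each), a log2 change of −0.44 (limma, adjusted p = 0.0263) that passed in 1 of 8. Snai2, the most abundant of the list, was at 40.9 ± 5.42 against 38.2 ± 3.75 FPKM and Ednrb at 18.8 ± 3.44 against 17.9 ± 3.94. Sox10, which Pax3 helps to activate in neural crest, was at 14.9 ± 1.66 against 17.2 ± 5.88 FPKM.

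**Figure D5:**
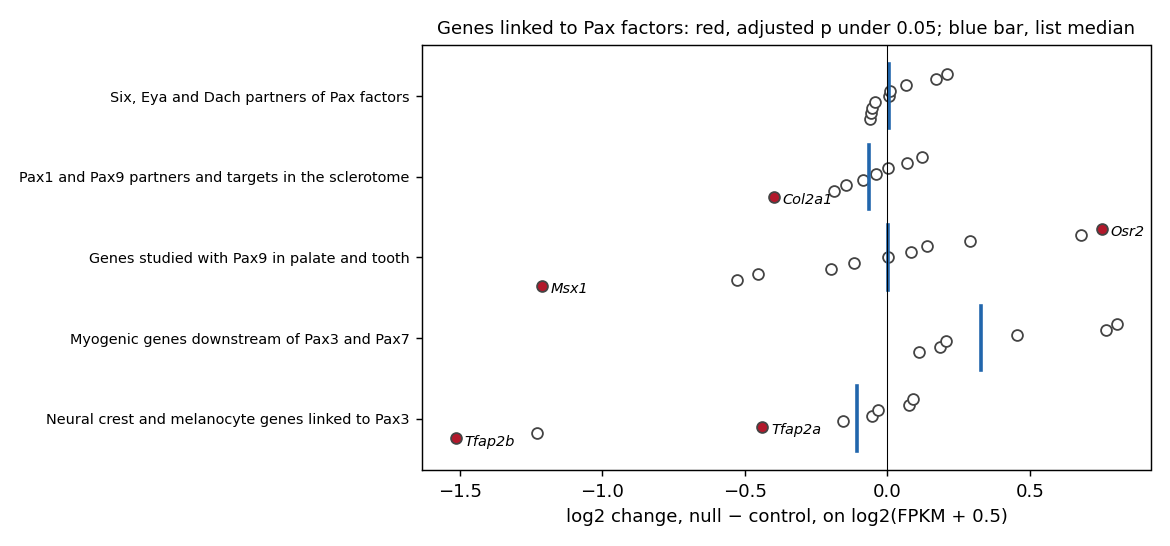
Log2 change from control to null for the tested genes of 5 lists, 1 point per gene, with a bar at each list's median. Red points passed an adjusted p of 0.05 over all 13600 genes, and they are Col2a1, Osr2, Msx1, Tfap2a and Tfap2b.

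Marker lists were read to check the tissue. Each library held 37069101 to 51210254 reads assigned to genes. The 8 palatal mesenchyme markers were above 0 FPKM in all libraries, and Osr2 was the one that rose by the test. Their sums were 853 to 917 FPKM in null and 661 to 797 in controls, without overlap. By log2 change 7 of them lay above 0 and 1 below. Osr2 and Barx1 are also among the genes studied with Pax9, so the sum does not measure tissue content alone. The 9 palatal epithelium markers summed to 159 to 212 and 164 to 251 FPKM, and 0 passed. Neuron markers (7 genes, 6 tested, 0 passed, Neurod1 at 0 in null 1) summed to 11.2 to 57.1 and 16.5 to 65.5 FPKM. Their median log2 change was −0.55, with 5 below 0 and 1 above. Schwann and glial precursor markers (5 genes, 0 passed) summed to 38.7 to 50.2 and 38.0 to 63.4 FPKM. Dental epithelium markers (4 of 5 measured, 0 passed) summed to 20.9 to 24.2 and 21.7 to 29.7 FPKM. The 3 measured markers of pituitary, thyroid, kidney and salivary gland summed to under 1 FPKM in every library, with Aqp5 at 0 in 4 libraries. The part of these cell types in the changes of the members was not tested beyond the values given.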

How the data were processed

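Poly(A)-selected RNA of 8 palatal shelf samples was sequenced from TruSeq v2 libraries, an unstranded kit, per the labels' protocols. The authors deposited FPKM values for 19083 genes. Novoalign 2.08.03, the build mm10 and DESeq2 are named, per the submitters' processing notes. The sources used here give no counting program, annotation or filter. FPKM steps gave whole reads for 19083 genes (100%, tolerance 0.03 of a read), used for depth and for voom. GENCODE M21 on GRCm38, the assembly mm10 names, matched 18752 identifiers and missed 331.

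Genes with FPKM of at least 1 in 2 libraries (13600) were tested on the log2(FPKM + 0.5) scale by limma 3.58.1 (R 4.3.3), with a mean-variance trend and two-sided Benjamini-Hochberg adjusted p-values over all tested genes. This scale understates changes of low genes. One fit had 2 groups (null, control), another 3 genotypes. Exact permutation tests of group differences used all 70 splits. Those of the order of members used all sign flips over the 8 libraries, and those of marker correlations all orderings of the 8 libraries. Pairs of libraries of 1 genotype differed beyond sampling noise (chi-square per degree of freedom 12.2 to 49.3). Litters are not labelled, and p-values measure only the spread among these 8 samples. Scripts were tested on simulated data. Python 3.11.15, pandas 2.3.3, scipy 1.17.1, matplotlib 3.10.9 and Biopython 1.88 were used for the rest.

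Named genes are the members, the 3 genes most like each tested member (mean FPKM of at least 1), list members past the threshold, the 2 most abundant of each list, and neighbours within 500 kb; some genes under this rule are not reported here. Members and lists were chosen with earlier results of these data known. Of the table's columns, 0 belonged to other samples. Alternatives were the pseudocount, filter, scaling, voom, blocks and left-out libraries.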

Additional observations from a re-analysis of the deposited data

Results flagged for a closer look

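Of 22 groups of 4 libraries checked for a library that stands apart from the other 3, 3 were flagged, and chance flags about 1 in 20 groups. Pax3 in wild type 2, at 2.17 FPKM, stood far above the other control libraries, which lay at 0.680 to 0.920. Pax6 in null 3, at 0.0199 FPKM, stood far below the other null libraries, which lay at 0.0662 to 0.0739. Tfap2a in heterozygote 2, at 5.09 FPKM, stood below the other 3 controls, which lay at 5.67 to 5.74, and still above all null libraries.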

How the results depend on the processing

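The count of called genes between null and control was 57, and it moved to 176 with column order (first 4 or last 4 libraries) as a block, to 0 and 4 in the libraries whose titles hold the number 44 and 56 alone, to 2 and 3 in the first and last 4 libraries alone, and to 16 to 52 when 1 library was left out. With the title number as a replicate block it was 47. Deviations of null and control libraries from their group means correlated at 0.170 to 0.570 over the 4 pairs with the same number within the first or last 4 columns, and at 0.131 to 0.411 over those with different numbers there. Between the column sets r ran from −0.476 to −0.160 with the same number and from −0.659 to −0.218 with different ones. These ranges overlap and column order moves them, so whether the number pairs samples was not settled. A replicate block of these 4 pairs, chosen after seeing the data, gave 307 calls and moved Pax1 past the threshold (log2 change −0.88, adjusted p = 0.0453).

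Pax9 missed the threshold in title number 44 alone (−1.58, adjusted p = 0.217) and in the first 4 libraries alone (−1.93, adjusted p = 0.0559), where fewer libraries were tested. Leaving out 1 library gave −1.75 to −1.59. Pax1 passed in 4 of 21 alternatives, among them voom (−1.62) and the column order block (−0.88). It ranged from −1.02 to −0.76 with 1 library left out, and the first and last 4 libraries alone gave −1.13 and −0.62. Pax3 was at −0.26 and 0.67 in title numbers 44 and 56 alone, and at −0.058 (without null 1) to 0.46 with 1 library left out. Pax6 changed sign at a pseudocount of 0.1, from 0.0025 to −0.0024. The cause of these moves was not tested.

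With 1 library left out, null against wild type gave 3 to 53 calls, Pax9 at −1.95 to −1.57, Pax1 at −1.21 to −1.12, Pax3 at −0.56 to 0.41 and Pax7 at −0.18 to 0.47. Null against heterozygote gave 0 to 14 calls and Pax9 at −1.71 to −1.51. Heterozygote against wild type gave 0 to 1 calls and Pax9 at −0.34 to 0.043, the latter without wild type 1. Over 21 alternatives between null and control, Tfap2b stayed past the threshold in 18, Msx1 and Osr2 in 11 each, Tfap2a in 10 and Col2a1 in 7, with their directions kept. A lone library left in a group was assumed to vary like the other groups. Low reads of Pax1 and Pax6 limit their precision.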
